A study of Mus musculus with 6 samples.

Results

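Haem is made from glycine and succinyl-CoA by a chain of enzymes that starts in the mitochondrion, passes through the cytosol and ends in the mitochondrion, where iron is inserted into protoporphyrin. The entry step is made by aminolevulinate synthase, which limits the rate of the pathway and exists as a ubiquitous enzyme, encoded by *Alas1* and repressed by haem, and an erythroid enzyme, encoded by *Alas2*, which supplies the haem of haemoglobin. All blood cells need haem for cytochromes, catalase and peroxidases, and red cell precursors need it in bulk. The genes examined here were 8 enzymes of this pathway, *Alas1*, *Alas2*, *Alad*, *Uros*, *Urod*, *Cpox*, *Ppox* and *Fech*, chosen by their names among the 54532 genes of the deposited table. The enzyme that acts between *Alad* and *Uros* was not analysed here.

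RNA was taken from LSK cells, the lineage-negative, Sca1-positive and c-Kit-positive bone marrow fraction that contains hematopoietic stem and progenitor cells. Control libraries (CTRL) came from littermates labelled *Myh9*fl/fl;no cre. Libraries that the study calls *Myh9*-deficient (cKO) came from mice labelled *Myh9*fl/fl;*Mx1-cre*, with 3 libraries in each group. Both groups were on the C57BL/6 strain, carried the floxed *Myh9* allele, were genotyped at 4 to 5 weeks and received poly I:C at 5 mg/kg, and 100000 cells were sorted for a library 4 days after the injections began. The labels give 2 doses of poly I:C and the methods of the study 3. Cre under the *Mx1* promoter is induced by interferon and is not limited to blood cells, and how many mice a library represents is not given in the sources used here, so that p-values measure the spread between these libraries. Values are FPKM, fragment counts scaled to gene length and library size, and the libraries held 17571544 to 19894562 reads on genes. *Myh9* measured 22.5 ± 0.495 FPKM in CTRL and 18.7 ± 1.18 FPKM in cKO libraries (SD, n = 3) and was lower in each cKO library than in every CTRL library (limma, log2 fold change -0.26, adjusted p = 0.00642). Most of the CTRL level of *Myh9* thus remained in cKO, and values by gene do not show the targeted exon by itself. Of 8 LSK markers, all tested, 2 were called higher and 2 lower (1 lower with any single library left out). *Kit* and *Ly6a* (Sca1) were present at 23.9 and 95.4 FPKM in CTRL and 21.5 and 89.5 FPKM in cKO, while lineage genes were low, with *Cd3e* listed at 0 in all CTRL libraries and at up to 0.282 FPKM in cKO libraries, and *Itgam* at 1.15 and 0.706 FPKM.

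The entry enzyme *Alas1* fell and the last 4 enzymes of the pathway rose in the cKO LSK cells. *Alas1* dropped from 79.7 ± 1.34 to 42.5 ± 0.774 FPKM (SD, n = 3), while *Urod*, *Cpox*, *Ppox* and *Fech* were each higher by 16.4% to 28.3% of the CTRL mean. *Alad* and *Uros*, which act in between, showed no change that passed the test, and *Alas2* was at the limit of detection in both groups. The test was limma on log2(FPKM + 1), run on the 11552 genes whose mean over the 6 libraries reached 1 FPKM, and p-values were adjusted over all of them by the Benjamini-Hochberg method. By this filter 7 of the 8 enzymes were tested. An adjusted p under 0.05 was reached by 5 of these 7, where 40.5% of all genes tested did so. In all, 19.9% of genes were called higher and 20.6% lower in cKO, against 4 and 1 of the 7 enzymes. The median log2 fold change of all genes tested was -0.0096. The added 1 FPKM makes log2 fold changes smaller than those of the plain ratio, most for genes near or below 1 FPKM.

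**Figure D1:**
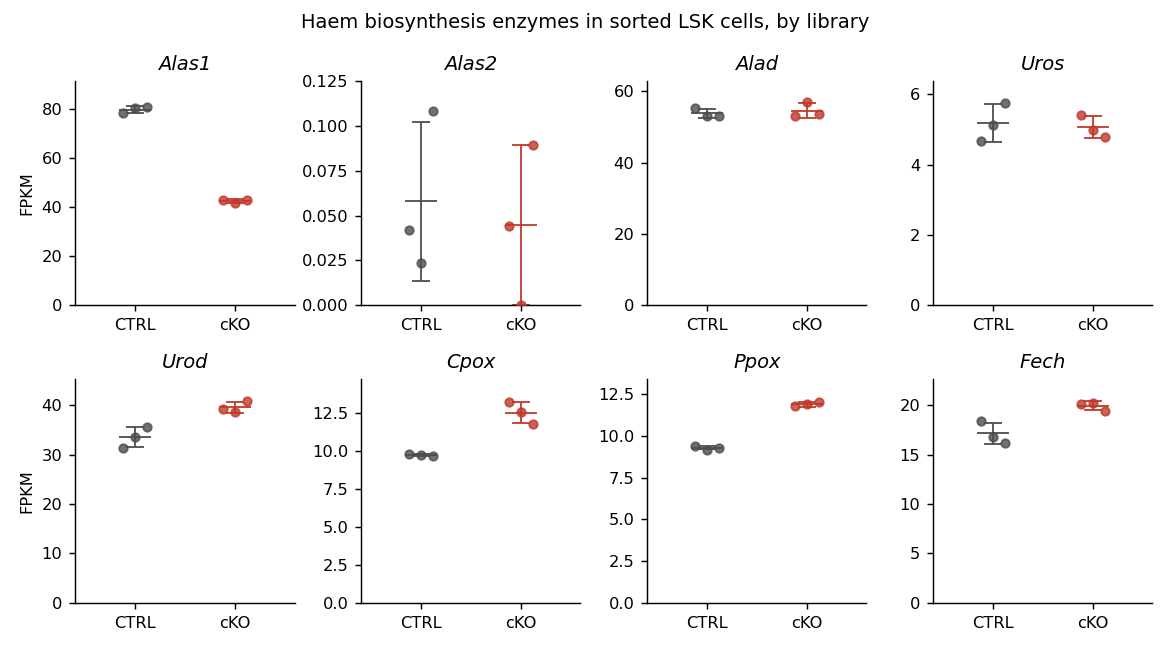
FPKM of each enzyme gene (vertical axis, starting at 0 and scaled for each gene) in the 3 CTRL and 3 cKO libraries, with the mean and SD of each group as bars. *Alas1* lies near 80 FPKM in CTRL and near 42 FPKM in cKO, *Urod*, *Cpox*, *Ppox* and *Fech* lie higher in every cKO library, and *Alas2* stays below 0.11 FPKM in all 6.

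*Alas1* (ENSMUSG00000032786, chromosome 9 from 106233455 to 106248654, minus strand, GRCm38) encodes the ubiquitous aminolevulinate synthase. Its values were 78.1, 80.2 and 80.7 FPKM in CTRL and 42.8, 41.6 and 43.0 FPKM in cKO libraries. The groups were far apart, with every cKO library at little more than the midpoint between 0 and the CTRL level. The mean fell by 46.7%, a ratio of CTRL to cKO of 1.87, and the log2 fold change was -0.89 with a standard error of 0.027 (limma, 95% confidence interval -0.96 to -0.83, adjusted p = 4.8e-06). A lower log2 fold change was found in 0.987% of all genes tested. Behind these values were 27873 reads in the CTRL and 14580 in the cKO libraries, and the replicate SD of 1.68% and 1.82% of the mean was close to the counting error of 1.04% and 1.43%. An antisense gene, *4930500F10Rik*, shares 465 exonic bases with *Alas1* (7.53% of its exonic length) and measured 0.076 FPKM in CTRL and 0.177 FPKM in cKO.

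A pair of matches to the recognition sequence of nuclear respiratory factor 1 (NRF1), in which the fifth base may be any, lies in the promoter region of *Alas1*, and the matches are shown because the entry enzyme changed most of the enzymes. Promoters were taken from RefSeq on GRCm38.p6, with 10 annotated starts for 7 of the 8 enzymes, and the 250 bases before each start were searched on both strands. Each run is given 5′ to 3′ on the minus strand with the match in capitals. GENCODE M21 places both runs inside the untranslated first exon of an extended *Alas1* transcript, and the first of them also reaches into an exon of *4930500F10Rik*.
Alas1, chr9:106247935-106247964: gcttcggcgcGCGCGTGCGCgcggcaggcc
Alas1, chr9:106247906-106247935: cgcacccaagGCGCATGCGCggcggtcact
These matches begin 224 and 195 bases before the more downstream of the *Alas1* starts in RefSeq. Of all 32851 promoter windows of this length, 3.74% held a match and 0.484% held at least 2. Among the other enzymes the same letters were found before 1 start of *Uros*. The *Alas1* window with both matches held 42 CpG dinucleotides, more than all but 0.712% of windows. A match describes the letters alone and shows no binding.

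The gene with the erythroid form of the enzyme, *Alas2* (ENSMUSG00000025270, chromosome X from 150547375 to 150570638), was almost silent. It was covered by 2, 1 and 5 reads in CTRL and 2, 0 and 4 reads in cKO libraries, which corresponds to 0.0419, 0.0236 and 0.108 FPKM and 0.0444, 0 and 0.0894 FPKM. A floor of 3 reads for a library corresponds to 0.0628 to 0.0708 FPKM for this gene, so the level in most libraries lay below it and no fold change is given. Only 14 reads were seen over the 6 libraries, and a change of *Alas2* was not detectable at this depth. The gene lies within the span of *Apex2* on the opposite strand, with 311 exonic bases in common, so even these few reads may be shared. In the last 208 bases before the annotated gene, 1 match to the GATA factor recognition sequence was found (AGATAA or AGATAG, and likewise TGATAA or TGATAG, on either strand), here in capitals. The sequence is shown because it is that of the erythroid gene in a cell fraction where that gene gave almost no reads.
Alas2, chrX:150547167-150547374, plus strand: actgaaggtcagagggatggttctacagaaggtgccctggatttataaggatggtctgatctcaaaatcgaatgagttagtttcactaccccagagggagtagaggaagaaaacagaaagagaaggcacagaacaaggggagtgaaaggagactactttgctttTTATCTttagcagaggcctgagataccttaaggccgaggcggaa
Matches of this kind were present in 26.5% of all windows of 250 bases.

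*Alad* (ENSMUSG00000028393, chromosome 4 from 62509169 to 62519918), whose product joins 2 aminolevulinate molecules into porphobilinogen, measured 55.4, 53.1 and 53.2 FPKM in CTRL and 53.1, 57.0 and 53.6 FPKM in cKO libraries. The groups overlapped, and the log2 fold change was 0.017 with a 95% confidence interval from -0.069 to 0.10 (limma, adjusted p = 0.735). *Uros* (ENSMUSG00000030979, chromosome 7 from 133686243 to 133710072), the gene of uroporphyrinogen III synthase, was the lowest of the enzymes tested, with 4.67, 5.13 and 5.74 FPKM in CTRL and 5.41, 4.98 and 4.79 FPKM in cKO libraries. These values overlapped as well, with a log2 fold change of -0.025 and a wider interval from -0.21 to 0.16 (limma, adjusted p = 0.817), which overlaps the intervals of *Urod* (0.12 to 0.35) and *Fech* (0.091 to 0.33). *Uros* was also the most variable, with an SD of 10.4% of the mean in CTRL at 323 to 394 reads a library.

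*Urod* (ENSMUSG00000028684, chromosome 4 from 116989965 to 116994413) encodes uroporphyrinogen decarboxylase, the last cytosolic enzyme. It measured 31.4, 33.6 and 35.5 FPKM in CTRL and 39.2, 38.7 and 40.7 FPKM in cKO libraries. Every cKO library was higher than every CTRL library, and the log2 fold change was 0.23 ± 0.049 (SE; limma, adjusted p = 0.00981). *Fech* (ENSMUSG00000024588, chromosome 18 from 64456550 to 64489066), which encodes the ferrochelatase that inserts iron, measured 18.4, 16.8 and 16.2 FPKM in CTRL and 20.2, 20.2 and 19.4 FPKM in cKO libraries. Its groups were also apart, by the smallest margin of the 5 enzymes called, at a log2 fold change of 0.21 ± 0.05 (SE; limma, adjusted p = 0.0157). Without CTRL replicate 2 the adjusted p of *Fech* was 0.0524, and without moderation of the variance it was 0.052. The table normalizes *Fech* over 2901 bases, while GENCODE M21 gives it 13838 exonic bases, so its level relative to the other enzymes depends on that gene model.

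The mitochondrial oxidases *Cpox* and *Ppox* rose most. *Cpox* (ENSMUSG00000022742, chromosome 16 from 58670292 to 58717636), the gene of coproporphyrinogen oxidase, measured 9.84, 9.77 and 9.70 FPKM in CTRL and 13.2, 12.6 and 11.8 FPKM in cKO libraries. The cKO values were spread more widely than the CTRL values, and all of them were higher (limma, log2 fold change 0.33 ± 0.046 SE, adjusted p = 0.00202). *Ppox* (ENSMUSG00000062729, chromosome 1 from 171275990 to 171281186), the gene of protoporphyrinogen oxidase, measured 9.38, 9.17 and 9.29 FPKM in CTRL and 11.75, 11.87 and 12.04 FPKM in cKO libraries. Both groups of *Ppox* values were tight and far apart, with SDs of 0.102 and 0.146 FPKM, and the log2 fold change was 0.33 ± 0.033 (SE; limma, adjusted p = 5.3e-04). A larger change in either direction was seen in 17.9% of all genes tested for *Cpox* and 18.1% for *Ppox*. *Ppox* shares 791 exonic bases (17.5% of its exonic length) with *B4galt3* on the opposite strand, which measured 3.54 FPKM in CTRL and 4.14 FPKM in cKO, and whether reads were counted by strand is not given in the sources used here. In all, 5 of the 7 enzymes tested had groups that did not overlap, where this held for 54.0% of all genes (25.5% higher and 28.5% lower in cKO).

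**Figure D2:**
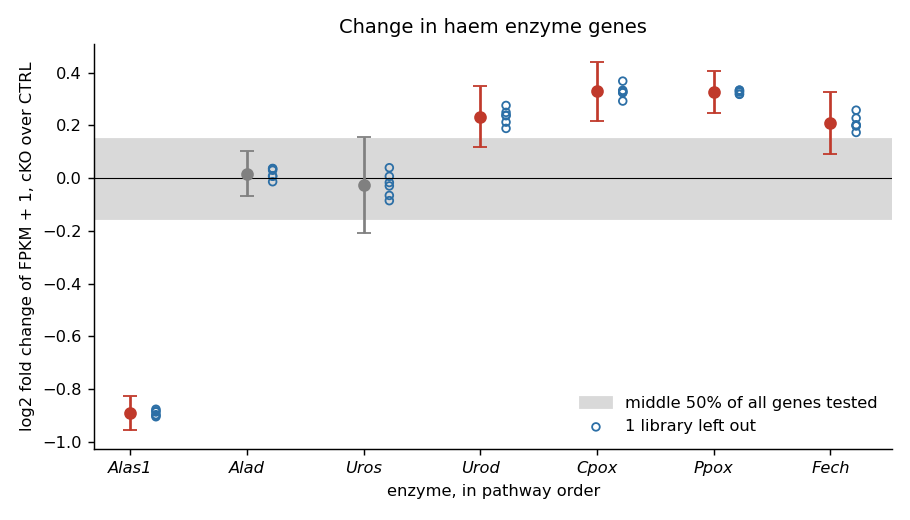
Log2 fold change of FPKM + 1, cKO over CTRL (vertical axis), for the 7 enzymes tested in pathway order, with the 95% confidence interval as a bar, red where the adjusted p was under 0.05. Open circles are the values with 1 library left out, and the grey band holds the middle 50% of all genes tested. *Alas1* stands at -0.89, *Alad* and *Uros* near 0 and the last 4 enzymes between 0.21 and 0.33.

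The sequences before *Cpox* and *Ppox* are shown because these genes rose by almost the same amount. *Cpox* held 2 GATA matches that overlap by 1 base, 91 and 86 bases before its start, where 6.40% of windows held at least 2. The window before 1 of the starts of *Uros*, a gene that was not called, also held 2 GATA matches, 205 and 68 bases before the start. *Ppox* held none of these but 4 matches to CCAAT, on either strand, and 0.84% of windows held as many. The windows of *Alad*, which was not called either, held 1 and 2 CCAAT matches. The matches are in capitals. A match is a description of the window and not a binding site. Neither printed run overlaps an annotated exon in GENCODE M21.
Cpox, chr16:58669958-58670207, plus strand: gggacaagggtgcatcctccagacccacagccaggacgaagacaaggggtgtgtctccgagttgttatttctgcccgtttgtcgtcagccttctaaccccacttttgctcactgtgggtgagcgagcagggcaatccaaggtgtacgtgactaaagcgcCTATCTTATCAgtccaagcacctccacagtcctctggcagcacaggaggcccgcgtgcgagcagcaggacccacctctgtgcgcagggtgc
Ppox, chr1:171281187-171281436, minus strand: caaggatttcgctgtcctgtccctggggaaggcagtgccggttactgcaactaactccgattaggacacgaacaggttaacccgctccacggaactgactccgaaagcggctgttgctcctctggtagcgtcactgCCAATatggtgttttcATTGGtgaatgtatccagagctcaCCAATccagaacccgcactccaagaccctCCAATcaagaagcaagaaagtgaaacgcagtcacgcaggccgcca
*Urod* had neither a GATA nor an NRF1 match in its window, and 1 CCAAT match.

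The order of the enzymes by FPKM therefore changed at its top. This order depends on the gene lengths used, 6174 bases for *Alas1* and 1871 for *Alad*. In reads, *Alas1* stayed above *Alad* in cKO, with 14580 and 5670 over the 3 libraries. The change of a ratio between the groups does not depend on gene length. On the FPKM scale, which is per length of gene, all CTRL libraries had the order *Alas1*, *Alad*, *Urod*, *Fech*, *Cpox*, *Ppox*, *Uros* and *Alas2*, and neighbours in this order did not overlap. In all cKO libraries *Alad* was higher than *Alas1*, and *Alas1* came close to *Urod*, with the lowest *Alas1* value at 41.6 and the highest *Urod* value at 40.7 FPKM. *Cpox* and *Ppox* overlapped in cKO, so their order there is not set. The level of *Alas1* was 1.41 to 1.52 times that of *Alad* in CTRL and 0.73 to 0.806 times in cKO. Relative to *Ppox*, *Alas1* went from 8.33 to 8.74 times in CTRL to 3.51 to 3.64 times in cKO. Relative to *Fech*, it went from 4.26 to 4.97 times to 2.05 to 2.21 times. The ranges of the groups did not overlap for any of the 6 enzymes compared with *Alas1* in this way.

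**Figure D3:**
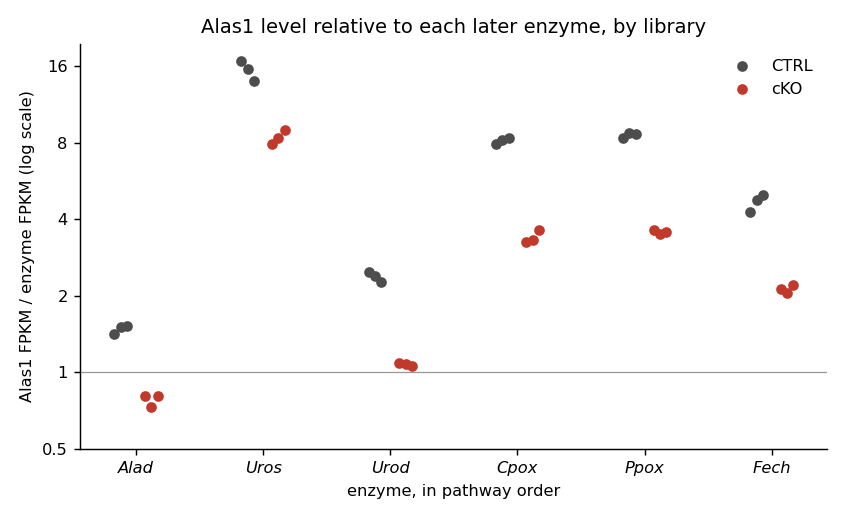
*Alas1* FPKM divided by the FPKM of each later enzyme (vertical axis, log scale) in each CTRL and cKO library. The ratio to *Alad* is at or above 1.41 in CTRL and at or below 0.806 in cKO, and for each of the 6 enzymes the cKO libraries lie below all CTRL libraries.

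Of 12 genes that import its substrates, move its intermediates or hold its enzymes in place, 11 were tested, 4 rose and 1 fell (median log2 fold change 0.067), a share called near the 40.5% of all genes tested. The rises numbered 2, with 2 falls, after quantile normalization, 3, with 2 falls, as TPM, and 2, with 1 fall, without moderation or with trends in GC content and length removed. *Pgrmc1*, whose product binds haem and ferrochelatase, went from 53.0 to 73.8 FPKM (limma, log2 fold change 0.47, adjusted p = 2.1e-04). *Slc25a38*, the mitochondrial glycine carrier, rose by 0.30 and *Tmem14c*, a porphyrin transporter, by 0.21. The mitochondrial iron importer mitoferrin 1, encoded by *Slc25a37*, fell, with 11.4, 11.1 and 11.2 FPKM in CTRL and 9.86, 9.21 and 9.84 FPKM in cKO libraries (limma, log2 fold change -0.20, adjusted p = 0.00805). Its paralogue *Slc25a28* rose by 0.13.

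Iron-sulphur clusters are needed by ferrochelatase and by the iron regulatory protein encoded by *Aco1*. Of 12 genes of their assembly, 11 were tested, 8 rose and none fell (median log2 fold change 0.20), where 19.9% of all genes tested rose and 20.6% fell, with *Lyrm4* (0.37), *Glrx5* (0.34) and *Nfu1* (0.26) at the front. Leaving out CTRL replicate 1, CTRL replicate 2 or cKO replicate 3 reduced this count to 5, as did fitting without the filter or without moderation. Among 13 genes of iron uptake and storage, all tested, 6 rose and 4 fell (median 0.025), beside 19.9% and 20.6% of all genes. The transferrin receptor gene *Tfrc* measured 16.8, 16.5 and 15.5 FPKM in CTRL and 23.7, 22.5 and 25.5 FPKM in cKO libraries, higher in each cKO library (limma, log2 fold change 0.53, adjusted p = 5.5e-04). *Slc40a1*, the gene of the iron exporter ferroportin, rose by 0.49 from a level of 1.11 FPKM, and *Slc11a2* rose by 0.21. The ferritin genes went apart, with *Fth1* at 0.16 and *Ftl1* at -0.12 (limma, adjusted p = 0.00178 and 0.0445). *Ncoa4*, which directs ferritin to lysosomes, fell by 0.17. Of the 4 falls, 1 was left when CTRL replicate 1, CTRL replicate 2, cKO replicate 1 or cKO replicate 3 was dropped, and 2 when CTRL replicate 3 was. Median of ratios scaling, no filter, moderation without a trend or the replicate block also left 1 fall. Removal of the GC content and length trends or of moderation left 2.

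Of 11 genes of haem export, breakdown and sensing, 10 were tested, 5 rose and 2 fell (median log2 fold change 0.19), and the share that fell was near the 20.6% of all genes while 19.9% of all genes rose. Without moderation 3 rose, and 2 did among genes averaging 5 FPKM or more, while quantile normalization or TPM gave 3 falls. *Hmox1*, the inducible haem oxygenase that opens the ring, measured 1.12, 1.94 and 2.29 FPKM in CTRL and 3.29, 4.23 and 3.62 FPKM in cKO libraries (limma, log2 fold change 0.78, adjusted p = 0.0112). *Blvrb*, a biliverdin reductase, rose from 26.7 to 42.9 FPKM (0.66), and the haem exporter gene *Flvcr1* rose by 0.36. *Bach1*, a repressor released from DNA by haem, measured 6.63, 5.49 and 5.70 FPKM in CTRL and 4.49, 4.41 and 4.12 FPKM in cKO libraries (limma, log2 fold change -0.37, adjusted p = 0.00707). *Eif2ak1*, the haem-regulated eIF2α kinase, went from 12.9 to 10.9 FPKM (limma, log2 fold change -0.22, adjusted p = 0.00557).

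Markers of other cells moved with these changes. Of 22 erythroid markers, 21 were in the table and 15 were tested, of which 14 rose (median log2 fold change 0.79, beside 19.9% of all genes). Their summed level was 679 to 684 FPKM in CTRL and 1170 to 1211 FPKM in cKO libraries, with the carbonic anhydrase gene *Car1* at 344 and 618 FPKM. The largest log2 fold changes of FPKM + 1 were those of the globin genes *Hbb-bt* (3.04) and *Hba-a1* (1.28), of *Cldn13* (1.56) and of *Rhag* (1.21). Reads of near-identical globin copies may be split between them. Markers of late erythroblasts were near 0, with *Slc4a1* (band 3) at 0.046 and 0.018 FPKM and *Epb42* at 0.071 and 0.143 FPKM, as was *Alas2*. Among 12 transcription regulators of erythroid and haem genes, 11 were tested and 6 rose, beside 19.9% of all genes, with *Klf1* at 0.50 and *Gata1* at 0.35 on the log2 scale. *Nrf1*, named after its values were seen because the recognition letters of its product stand before *Alas1*, measured 5.03, 5.15 and 4.81 FPKM in CTRL and 4.93, 4.99 and 4.91 FPKM in cKO libraries (limma, log2 fold change -0.013, adjusted p = 0.837). A list of 13 markers of neutrophil and monocyte progenitors was added after their values were seen, as were the members named from it. All 13 were tested and all fell (median log2 fold change -0.77, beside 20.6% of all genes), and their summed level was 10787 to 10847 FPKM in CTRL and 6093 to 6191 FPKM in cKO libraries. As the values were known when the list was made, this count is a description only. Neutrophil genes outside the list rose, with *Retnlg* from 8.94 to 30.1, *Pglyrp1* from 22.3 to 38.5 and *Lcn2* from 11.2 to 18.2 FPKM. *Mpo*, the gene of the haem enzyme myeloperoxidase, measured 3363, 3298 and 3333 FPKM in CTRL and 1961, 1965 and 1934 FPKM in cKO libraries, and *Elane* changed by -1.20 and *Irf8* by -1.78 on the log2 scale. The part of these cell types in the values of the haem enzymes was not tested. In these bulk libraries, fewer cells of a type and less RNA in each cell cannot be told apart.

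**Figure D4:**
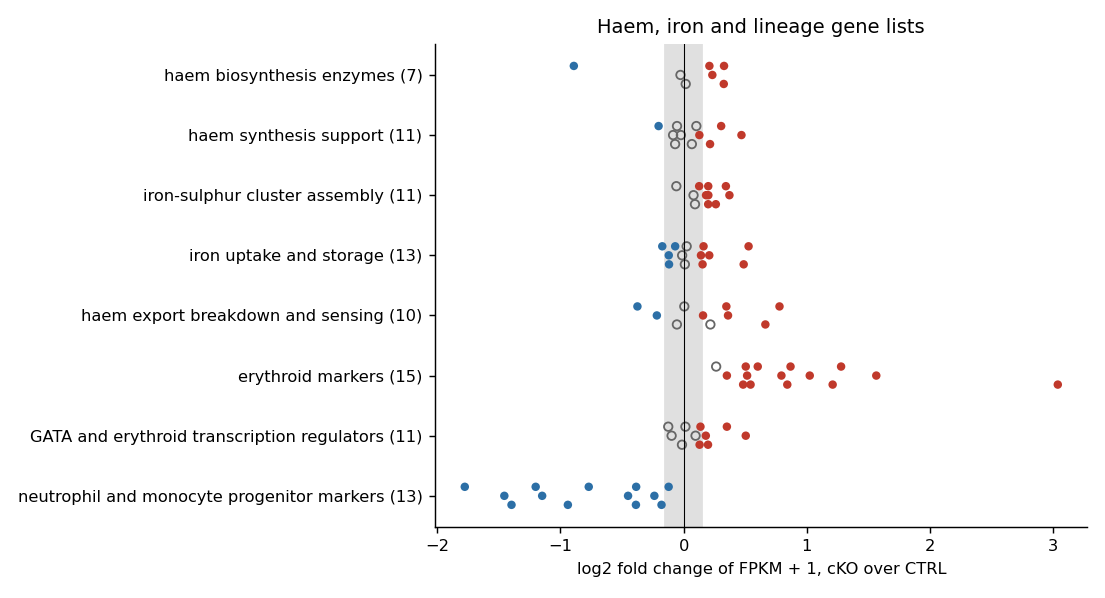
Log2 fold change of FPKM + 1, cKO over CTRL (horizontal axis), of each gene tested in the haem enzymes and 7 gene lists, with the number tested in parentheses. Filled red and blue points are genes called higher and lower, open points were not called, and the grey band holds the middle 50% of all genes tested. *Alas1* is the only enzyme called lower, all but 1 of the erythroid markers tested are called higher and all 13 neutrophil and monocyte progenitor markers are called lower. These 13 were listed after their values were seen.

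The genes whose values followed *Alas1* most closely over the 6 libraries were *Ehd4*, *Mgst1*, *Ccr2*, *Ighm* and *Egr1*. Their Pearson correlations with *Alas1*, on log2(FPKM + 1), were between 0.9992 and 0.9997 among 7168 genes that averaged 5 FPKM or more. The 6 points share the difference between the groups, and 860 of these genes had a correlation above 0.95, so the order among them is a description only. *Mgst1*, a microsomal glutathione transferase, went from 29.1 to 13.1 FPKM and *Ccr2*, a chemokine receptor of monocytes, from 14.4 to 6.73 FPKM.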

How the data were processed

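RNA-seq libraries of sorted LSK cells (3 CTRL, 3 cKO) were analysed. The authors deposited a table of FPKM by gene and library, with the length of each gene. The submitters' processing notes name HISAT2 2.0.5 and mm10, and the counting program is not given in the sources used here. Multiplied by gene length, 100% of FPKM values above 0 were whole multiples of the value of a single read in their library (tolerance 0.05 reads), and the reads recovered in this way served for depth, the floor of 3 reads and an alternative test with voom. Intervals from reads cover counting error only.

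The main test was lmFit and eBayes with a trend on log2(FPKM + 1) (limma 3.58.1, R 4.3.3), two-sided, for 11552 genes averaging 1 FPKM or more, adjusted by the Benjamini-Hochberg method. Tested on simulated data of these 11552 genes for the cKO against CTRL comparison, it recovered 93% of 100 genes changed by 1 and 67% of 100 genes changed by 0.5 on the log2 scale, and called 0.0881% of unchanged genes. The simulation gave all genes the same dispersion and changed far fewer genes than were called here. Sizes as small as the enzyme rises of 0.21 to 0.33 were not simulated, so these rates need not hold for this comparison. The members and lists were chosen with earlier results of these data known, and the list of neutrophil and monocyte progenitor markers after values were seen. Beside the enzymes and *Myh9*, at most 4 called genes in each direction were named from a list, largest change first, and any that the marker check needed. *Car1* and the members named from the neutrophil and monocyte list did not follow this order. The 5 genes most like *Alas1* were those with the highest Pearson r, since *Alas2* was below the filter. *Fdx2* was found under its synonym *Fdx1l*, and 1 erythroid marker was not analysed here. Gene spans and overlaps came from GENCODE M21 (GRCm38) and promoters from RefSeq (GRCm38.p6). Promoters were also searched for KLF1, AP-1 and E box sequences, which are not reported. Other software was Python 3.11.15, numpy 2.4.6, pandas 2.3.3 and matplotlib 3.10.9. A result on 1 lineage gene is not reported here.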

Additional observations from a re-analysis of the deposited data

How the results depend on the processing

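The 7 enzymes tested were refitted under 18 alternatives: a pseudocount of 0.1, no filter or a mean of at least 5 FPKM, median of ratios, quantile normalization, TPM, moderation without a trend or none, voom, a replicate block, each library left out, removal of trends with GC content and length, and the ratio of means. *Alas1*, *Cpox* and *Urod* kept their direction in all 18 and their call in each that had a test, with log2 fold changes from -0.92 to -0.80, from 0.29 to 0.39 and from 0.19 to 0.28. *Ppox* kept both as well (0.31 to 0.38), and its ratio of means gave 0.36. *Fech* kept its direction, with 0.21 and an adjusted p of 0.052 without moderation, and ranged from 0.17 to 0.26 with 1 library left out. The uncalled *Alad* had values of -0.043 after quantile normalization, -0.0037 as TPM and -0.043 with the trends removed, and -0.014 to 0.037 with 1 library left out. *Uros*, also uncalled, ranged from -0.086 to 0.039 with 1 library left out. The cause of these shifts was not tested. A rule of over 2-fold change and p under 0.05 before adjustment called 165 rises and 81 falls, in place of 2295 and 2378, and none of the enzymes was among them. In the 8 lists first fixed, 77 genes were tested, of which 43 were higher and 9 lower, beside 19.9% and 20.6% of all genes tested. With 1 library left out, 36 to 40 genes of the lists were higher and 5 to 7 lower. Same-numbered libraries did not deviate together over all genes (correlations of -0.026 to -0.0046, and 0 of 6 libraries correlated best with their own number). This check cannot show whether same-numbered libraries came from littermates or were handled together. With the replicate block 2063 genes were higher and 2044 lower, 41 and 6 genes of the lists were called, and the calls of the enzymes did not change (*Alas1* -0.89, *Fech* 0.21). *Alas2*, below the filter, had an adjusted p of 0.821 when fitted without it and is limited by depth.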
